A study of Homo sapiens with 16 samples.

Results

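The 10 genes described here encode the SET1/MLL histone methyltransferases and the core subunits that they share. They are DPY30, ASH2L, RBBP5 and WDR5 for the core, and MLL, MLL2, MLL3, MLL4, SETD1A and SETD1B for the enzymes. They were listed by symbol as parts of these complexes, with earlier results of these data known, and all 10 were found among the 23230 gene symbols counted in each library. RNA was sequenced from 8 established human blood cell lines, each exposed to either of 2 peptides, with 1 library per line and peptide (16 libraries). Peptide 3R does not bind DPY30 and was the control, and peptide Y518R binds DPY30. The labels give an MLL fusion for 4 lines. It is MLL-AF9 in MOLM13 and in THP1, while RS4-11 has MLL-AF4 and KOPN8 has MLL-ENL. No such fusion is given for K562 (BCR-ABL), for the Burkitt's lymphoma line RAJI, for JURKAT (a Myc-dependent T cell leukemia) or for the Burkitt's lymphoma model P493-6, which form the class of 4 other lines. All libraries shared the same medium, Advanced RPMI with 2.5% fetal bovine serum. Neither dose nor duration of the peptide exposure is stated in these sources. The line was the unit of replication (n = 8, or 4 per class), and no line had a second library of the same peptide.

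SET1/MLL enzymes place methyl groups on lysine 4 of histone H3, a mark found at active promoters and enhancers. Each enzyme works only weakly alone and is stimulated by a shared core of WDR5, RBBP5, ASH2L and DPY30, often called WRAD. DPY30 joins this core by binding a helix near the end of ASH2L. In leukemias with an MLL fusion, 1 copy of MLL is joined to another gene and the fusion protein keeps the front part of MLL without the methyltransferase domain. Such cells usually still carry a normal copy of MLL. The MLL counts here are for the whole gene symbol, so reads of fused and unfused transcripts were not separated.

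Names limit some of the comparisons. MLL is now called KMT2A and MLL3 is KMT2C. The symbols MLL2 and MLL4 have each been used for both KMT2B and KMT2D, which could not be settled from the files, so both are given by the deposited symbol only and without a value per length. MLL3 shares near-identical sequence with other copies in the genome, so its counts are uncertain. Whether counting used the strand is not stated in these sources, so reads of antisense or overlapping genes cannot be told apart.

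Libraries held 19354300 to 43003124 gene counts, and the members had between 432 counts (SETD1B in RAJI 3R) and 11124 counts (MLL2 in JURKAT 3R). The share of reads that fell in no gene was 17.7% to 26.9% in 15 libraries and 44.7% in RAJI 3R, which stands apart. Summed T cell markers were at 982 and 924 CPM in JURKAT and at most 47.1 in every other library. CPM here is the usual library-size scaling of counts, with TMM factors. B cell markers were at 783 CPM or more in RS4-11, KOPN8, RAJI and P493-6 and at most 19.9 elsewhere, and erythroid markers were at 2330 and 2420 CPM in K562. Monocytic markers (LYZ, MPO, CD33 and CSF1R) summed to 641 to 919 CPM in MOLM13 and THP1 and at most 54.1 elsewhere. CSF1R alone was also at 19.9 and 22.4 CPM in RS4-11, near the 24.3 and 23.2 of MOLM13. HOXA9 was at 10.2 CPM or more in the lines with an MLL fusion and at most 0.0356 in the others. HOXA10 was at 78.1 CPM or more and at most 0.296. With MEIS1 added, the sums were 88.6 CPM or more and at most 6.29. In THP1, HOXA10 made up 90.7 of 104 CPM with 3R and 78.1 of 88.6 with Y518R. MEIS1 did not pass the test between the classes (adjusted p = 0.442 in edgeR). Each library is a bulk sample of a line, so fewer expressing cells and less RNA per cell cannot be told apart.

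No member passed the test for a change with Y518R over the 8 lines. DPY30, the subunit that the peptide binds, had a fitted log2 change of -0.06 ± 0.07 (SE, n = 8), and ASH2L, its docking partner, had 0.03 ± 0.07. The other fitted changes ran from -0.05 (MLL3) to 0.05 (RBBP5). In edgeR's quasi-likelihood test with the line as a block, 0 of the 10 members and 0 of 13043 genes (0%) passed an adjusted p of 0.05. The adjusted p was 1 for each member. Before adjustment, 397 of all genes and 0 members had a p under 0.05. DESeq2 also called 0 genes, and limma-voom called 3 genes, none of them a member. Of the 10 members, 7 had a fitted change above 0, beside 49.1% of all genes tested. Their median log2 change was 0.0097, against -0.0021 over all genes tested. The 95% intervals of the mean ratio, as folds, ran from 0.877 to 1.05 for DPY30, 0.957 to 1.05 for WDR5 and 0.873 to 1.17 for SETD1B, the widest. These intervals are what the 8 lines allow, and the lack of a call does not show that levels were equal.

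**Figure D1:**
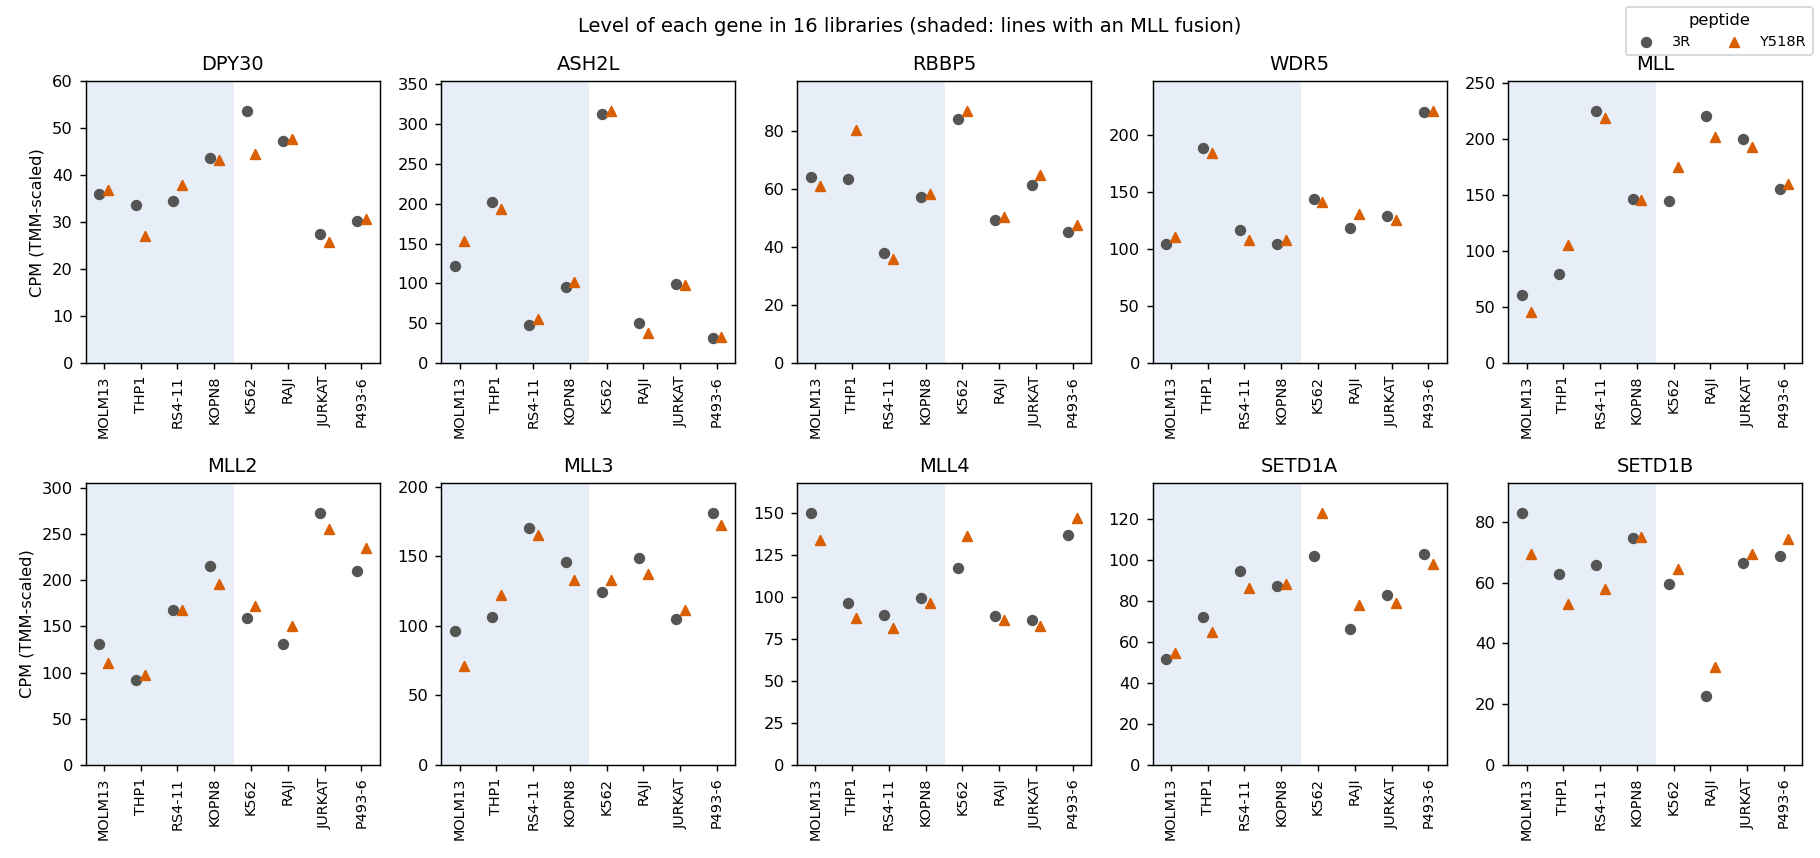
Level of each of the 10 genes (CPM, TMM-scaled, linear axis from 0) in the 8 cell lines, with grey circles for peptide 3R and orange triangles for Y518R, 1 library each. ASH2L stands at 313 and 316 CPM in K562 and SETD1B at 22.6 and 32.4 in RAJI, and the circle and triangle of a line mostly lie closer together than the lines do.

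The core subunits are described first, with the value of each library before its ratio. For DPY30, which forms the dimer that docks onto ASH2L, the 3R and Y518R libraries of MOLM13 were at 36 and 36.9 CPM, those of THP1 at 33.7 and 27.1, those of RS4-11 at 34.6 and 38, and those of KOPN8 at 43.7 and 43.3. The other lines were at 53.6 and 44.6 in K562, 47.3 and 47.6 in RAJI, 27.4 and 25.8 in JURKAT, and 30.3 and 30.7 in P493-6. DPY30 was thus lower with Y518R in 4 lines and higher in 4, and the peptide groups overlapped over nearly their whole range. The log2 ratio of Y518R to 3R was lowest in THP1 (-0.32) and K562 (-0.26), and highest in RS4-11 (0.13). In these 3 lines the 95% counting interval left out 0, from -0.45 to -0.18 in THP1, from -0.38 to -0.15 in K562 and from 0.025 to 0.24 in RS4-11. Such intervals cover counting error only, and no test was possible within a line. The mean over lines was -0.06 ± 0.16 (SD, n = 8).

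ASH2L, which anchors DPY30 and helps to activate the enzymes, ran from 31.3 CPM (P493-6) through a median of 97.9 to 313 (K562) with 3R. With Y518R it ran from 33.3 through 100 to 316 in the same lines. Its highest ratios were in MOLM13, at 122 and 153 CPM (log2 ratio 0.32), and in RS4-11, at 47.8 and 55.1 (0.20). Its lowest was in RAJI, at 50.1 and 38.5 CPM (-0.38, 95% counting interval -0.52 to -0.24). Lines therefore lay on both sides of 0 for ASH2L, 5 above and 3 below, with a mean of 0.03 ± 0.21 (SD, n = 8). The RAJI value rests on the 3R library with 44.7% of its reads given to no gene, against 23.4% in RAJI Y518R, and the part of that gap in the ratio was not tested.

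RBBP5, which bridges WDR5 and ASH2L to the enzyme, ran from 38.1 CPM (RS4-11) through 59.5 to 84.2 (K562) with 3R, and from 36 through 59.7 to 86.9 with Y518R. It differed little between the peptides in 7 lines, whose log2 ratios lay from -0.08 to 0.08. THP1 stood apart from them, at 63.7 CPM with 3R and 80.3 with Y518R (log2 ratio 0.33, 95% counting interval 0.25 to 0.42). WDR5, the subunit that grips the enzymes through a short arginine motif, had the lowest spread of ratios over lines of all members. WDR5 was at 105 (KOPN8) through 124 to 220 CPM (P493-6) with 3R, and at 108 (RS4-11) through 128 to 221 (P493-6) with Y518R. Its log2 ratios ran from -0.13 (RS4-11) to 0.14 (RAJI), with a mean of 0.0047 ± 0.081 (SD, n = 8). That SD was at percentile 1.9 among 9838 genes at a mean CPM of 10 or more, a set not matched to WDR5 in level.

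Among the enzymes, MLL and MLL3 had their lowest ratios in MOLM13 and their highest in THP1. MLL, the enzyme joined to a partner in the fusion lines, had 60.7 CPM (3R) and 45.9 CPM (Y518R) in MOLM13, against 79.9 and 106 in THP1. These lines carry the same MLL-AF9 fusion, and their log2 ratios were -0.40 and 0.41. K562 was also higher with Y518R (145 and 175 CPM, 0.26), RAJI was lower (221 and 202, -0.13), and the other 4 lines lay from -0.05 to 0.04. MLL3, the catalytic subunit of complexes known for methylating enhancers, had 96.4 and 71.2 CPM in MOLM13 (-0.44) against 106 and 122 in THP1 (0.21). The remaining MLL3 ratios ran from -0.13 (KOPN8) to 0.10 (K562). Over the 8 lines, the ratios of MLL and MLL3 had a Pearson correlation of 0.902 (Spearman 0.714), the highest of 45 pairs of members. The lowest was that of DPY30 and RBBP5 (-0.797 and -0.786). These values are descriptions, in which both genes of a pair share the same libraries and scaling.

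MLL and MLL3 have long transcripts, and ratios in MOLM13 and THP1 also moved with transcript length across all genes. In MOLM13 the median log2 ratio was -0.24 over 409 genes with transcripts of at least 10000 bases and 0.14 over 1668 genes with transcripts of at most 1500 bases. In THP1 these medians were 0.19 and -0.13, the other way round. MLL (16628 bases) and MLL3 (16862 bases) had the sign of the long transcripts in both lines. DPY30 (708 bases) had the sign of the short transcripts in both lines, but its MOLM13 ratio of 0.04 had a counting interval of -0.10 to 0.18. Members with lengths between these limits were mixed. In MOLM13 and THP1, SETD1A (6451 bases) was at 0.08 and -0.16, and SETD1B (5969 bases) at -0.25 and -0.24. RBBP5 (4404 bases) was at -0.08 and 0.33, WDR5 (3151 bases) at 0.07 and -0.04, and ASH2L (3090 bases) at 0.32 and -0.07. The Spearman correlation of ratio with length, across 11958 genes that are not independent replicates, was -0.267 in MOLM13, 0.249 in THP1, -0.203 in KOPN8 and 0.154 in JURKAT, and between -0.039 and -0.0017 in the other 4 lines. In K562 the medians of long and short transcripts were -0.0031 and 0.0015, beside a DPY30 ratio of -0.26 and an MLL ratio of 0.26. The part of transcript length in the ratios of single members was not tested.

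**Figure D2:**
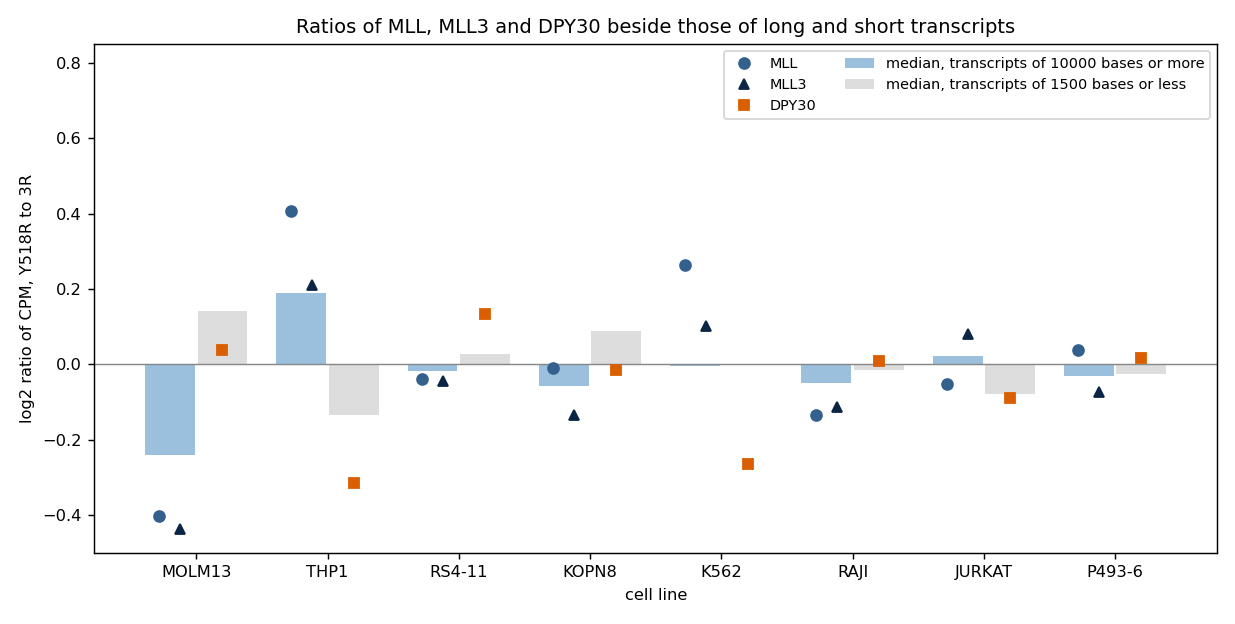
Log2 ratio of CPM (Y518R to 3R, vertical axis) in each line for MLL, MLL3 and DPY30 (points), beside the median ratio of 409 genes with long transcripts (blue bars) and 1668 genes with short transcripts (grey bars). In MOLM13 and THP1 the MLL and MLL3 points lie on the side of the long transcripts and DPY30 on the side of the short ones. DPY30 in MOLM13 is close to 0 (0.04, with a counting interval that spans 0). In K562 both bars are near 0.

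MLL2 and MLL4 are the symbols of the remaining pair of MLL-type enzymes, KMT2B and KMT2D. MLL2 ran from 92.5 CPM (THP1) through 163 to 273 (JURKAT) with 3R, and from 97.6 through 170 to 256 in the same lines with Y518R. Its ratio was lowest in MOLM13 (131 and 110 CPM, -0.26) and highest in RAJI (131 and 150, 0.20), with 4 lines above 0. MLL4 ran from 86.3 CPM (JURKAT) through 97.9 to 150 (MOLM13) with 3R, and from 81.4 (RS4-11) through 92.0 to 147 (P493-6) with Y518R. K562 had the highest MLL4 ratio (117 and 136 CPM, 0.21) and P493-6 the next (137 and 147, 0.11), while the other 6 lines lay below 0, down to -0.16 in MOLM13.

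SETD1A and SETD1B encode the enzymes of the SET1 complexes, which are known for most of the trimethylation at promoters. SETD1A ran from 51.6 CPM (MOLM13) through 85.1 to 103 (P493-6) with 3R and from 54.4 (MOLM13) through 82.7 to 123 (K562) with Y518R. Its ratio was highest in K562 (102 and 123 CPM, 0.27) and RAJI (66.2 and 78.0, 0.24), and lowest in THP1 (72.4 and 64.9, -0.16). For SETD1B, the 3R and Y518R libraries of MOLM13 were at 83 and 69.6 CPM, those of THP1 at 62.8 and 53, those of RS4-11 at 65.9 and 57.9, and those of KOPN8 at 74.8 and 75.2. The other lines were at 59.5 and 64.6 in K562, 22.6 and 32.4 in RAJI, 66.5 and 69.5 in JURKAT, and 68.7 and 74.5 in P493-6. SETD1B was lower with Y518R in 3 of the 4 lines with an MLL fusion and higher in all 4 other lines. Its ratio in RAJI, 0.52 (95% counting interval 0.34 to 0.70), was the largest of any member in any line and came from 432 and 625 counts.

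**Figure D3:**
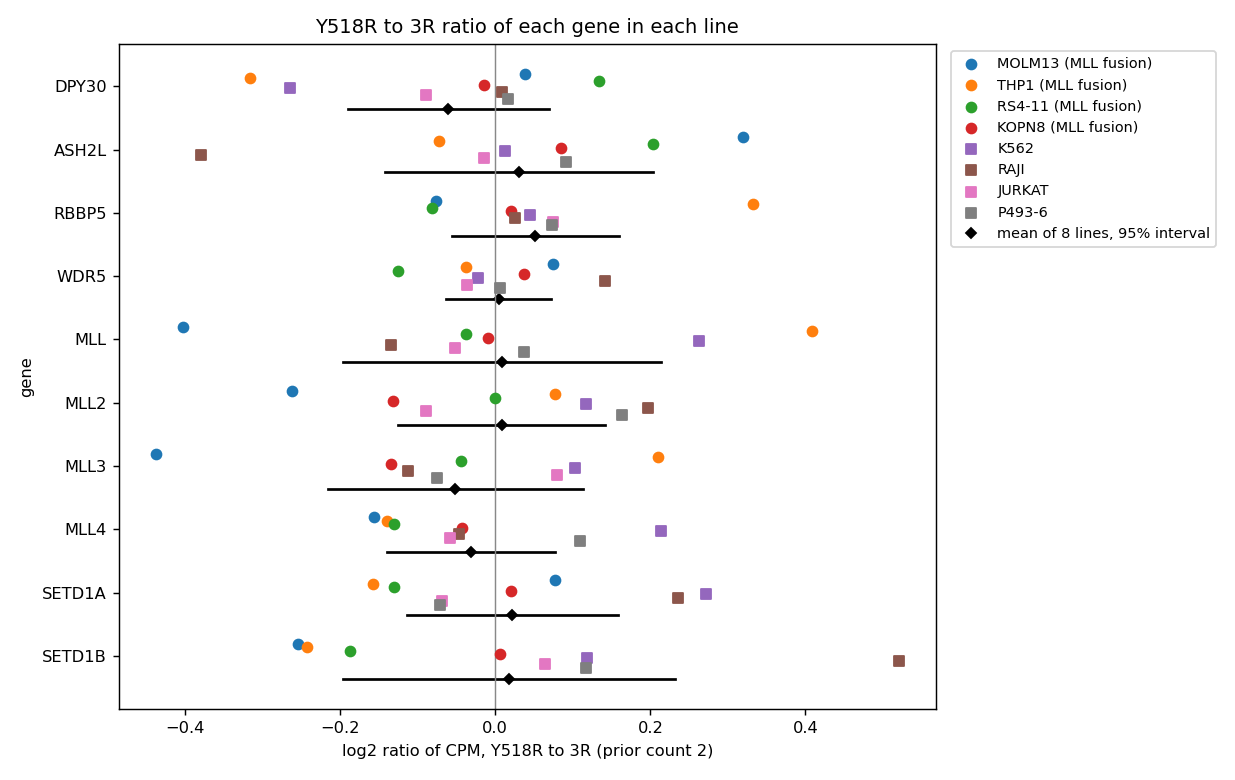
Log2 ratio of CPM (Y518R to 3R, prior count 2, horizontal axis) of each gene in each line, with circles for lines with an MLL fusion, squares for the other lines, and a black diamond with a bar for the mean of 8 lines and its 95% interval. Every interval spans 0, and the points farthest out are SETD1B in RAJI (0.52), MLL3 in MOLM13 (-0.44) and MLL in THP1 (0.41).

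The enzymes were then compared between the classes of lines. Within the lines with an MLL fusion, 0 of the 6 enzymes had a fitted change above 0 (median -0.09), beside 50.3% of all genes tested (median 0.0012). Within the other lines 5 of 6 did (median 0.07), beside 48.7% of all genes (median -0.0033). MLL was at -0.0056 ± 0.11 (SE) in the fusion lines and MLL3 at -0.001 ± 0.092 in the others, so their sides are not settled. The 6 enzymes also share the same libraries and scaling, so they are not independent of each other. No member passed the test in either class, with adjusted p-values of 0.84 to 0.996 in the fusion lines and 1 in the others by edgeR. The background was 0 of 13043 genes (0%) in each class, with 770 and 206 genes at an unadjusted p under 0.05. DESeq2 called 1 gene and limma-voom 20 in the fusion lines, and 0 and 2 in the others, none of them a member. The difference between the classes was below 0 for all 6 enzymes, with a median of -0.16, against 0.01 over all genes tested. It was largest for SETD1B, at -0.37 ± 0.13 (SE, 4 lines per class), where the unadjusted p was 0.0129 and the adjusted p was 1 in edgeR's test. Again 0 of 13043 genes (0%) were called, with 495 at an unadjusted p under 0.05, and DESeq2 and limma-voom each called 2 genes, none a member. SETD1B's difference was -0.27 without RAJI and ran to -0.43 without KOPN8. For MLL the sign of this difference turned without MOLM13 (0.09) and without K562 (0.05), and for MLL3 it turned without MOLM13 (0.0075). Among the core subunits the differences were 0.20 ± 0.13 (SE) for ASH2L (0.11 without RAJI and 0.13 without MOLM13), 0.04 for DPY30, -0.0046 for RBBP5 and -0.04 for WDR5, and none passed the test.

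Line by line, the enzymes lay wholly on 1 side of 0 in 2 of the 8 lines. All 6 were above 0 in K562, with a median log2 ratio of 0.17, and none was above 0 in RS4-11 (median -0.087). MLL2 in RS4-11 was at -0.000167, with a counting interval of -0.051 to 0.050, so its side is not settled. The median over all genes tested was 0.012 in K562 and 0 in RS4-11. It lay between -0.014 (MOLM13) and 0.016 (THP1) in every line. In MOLM13, SETD1A alone was above 0 and the median was -0.26. P493-6 had 4 of 6 enzymes and all 4 core subunits above 0, with medians of 0.073 and 0.045. Enzymes above 0 numbered 3 of 6 in THP1 and in RAJI, and 2 of 6 in KOPN8 and in JURKAT. JURKAT had the smallest ratios, none beyond 0.09 from 0 for any member. Between 3 (DPY30) and 7 lines (MLL2 and MLL3) had a counting interval that left out 0 for most members. RBBP5 had 1 such line and WDR5 had 2. The intervals narrow as counts rise, so these numbers do not rank the members. MLL2 had 2297 to 11124 counts per library, against 694 to 1503 for DPY30. The share over all genes was not computed. It is therefore not known whether members went beyond counting error in single lines more often than other genes. With 1 library per line and peptide, peptide and library-to-library spread cannot be told apart there.

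The members differed between lines. All 10 passed the F test of the line terms in edgeR, with adjusted p-values from 9.8e-12 (ASH2L) to 6.45e-05 (DPY30). That share is close to the background, since 12827 of 13043 genes (98.3%) passed it. The spread in this test is that between the libraries of a line, which differ in peptide and are not known to be separate cultures. The members varied less between lines than most genes at a mean CPM of 10 or more. Their median ratio of the highest to the lowest line was 2.22-fold, against 3.77-fold over 9838 genes at a mean CPM of 10 or more, and 8 of the 10 lay below that median. MLL4 varied least, 1.68-fold, and DPY30 next, 1.85-fold, at percentiles 4.17 and 7.76 of all these genes. ASH2L (9.74-fold) and MLL (4.17-fold) were the only members above the median of all genes.

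**Figure D4:**
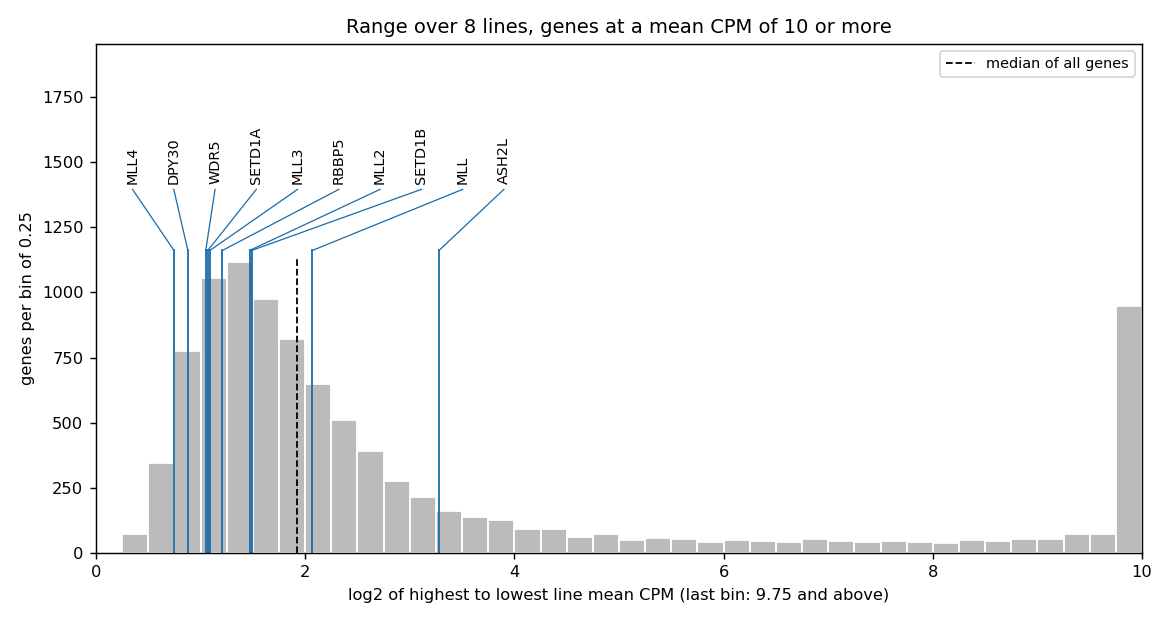
Histogram of the log2 ratio of the highest to the lowest line mean CPM (horizontal axis) for 9838 genes at a mean CPM of 10 or more (vertical axis: genes per bin), with a blue line for each of the 10 genes and a dashed line at the median of all genes (1.92). ASH2L (3.28) and MLL (2.07) lie to the right of the median and the other 8 genes to its left.

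DPY30 was highest in K562 (49.1 CPM, mean of the line's libraries) and RAJI (47.4), followed by KOPN8 (43.5), MOLM13 (36.4), RS4-11 (36.3), P493-6 (30.5), THP1 (30.4) and JURKAT (26.6). Libraries overlapped between K562 and RAJI, MOLM13 and RS4-11, P493-6 and THP1, and THP1 and JURKAT, so the order of these neighbours is open. Each line had only 2 libraries, which differ in peptide, so overlap or its absence is a description here and not a test. ASH2L followed a steeper order: K562 (315), THP1 (197), MOLM13 (138), KOPN8 and JURKAT (99.1 each), RS4-11 (51.5), RAJI (44.3) and P493-6 (32.3). KOPN8 overlapped JURKAT and RS4-11 overlapped RAJI, and all other neighbours were apart. Without K562 the range of ASH2L was 6.13-fold, and without P493-6 it was 7.1-fold. RBBP5 followed a like order, with K562 highest (85.6), then THP1 (72.0), and RS4-11 lowest (37.0). WDR5 was instead highest in P493-6 (221) and THP1 (187), and lowest in KOPN8 (106), MOLM13 (108) and RS4-11 (112), which overlapped as neighbours.

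MLL was highest in RS4-11 (222 CPM) and RAJI (211), which overlapped, and lowest in the lines with MLL-AF9, THP1 (93.0) and MOLM13 (53.3). THP1 and MOLM13 were also the lines with high summed monocytic markers, so fusion and cell type cannot be told apart. Without MOLM13 the range of MLL was 2.38-fold. MLL3 was also lowest in MOLM13 (83.8) and was highest in P493-6 (176). MLL2 was highest in JURKAT (264) and lowest in THP1 (95). MLL4 was high in MOLM13 and P493-6 (142 each) and K562 (127), and lay between 84.6 and 97.9 in the other 5 lines. SETD1A ran from 53 (MOLM13) to 112 (K562). SETD1B lay between 57.9 (THP1) and 76.3 (MOLM13) in 7 lines and at 27.5 in RAJI. RAJI thus set its range, which was 2.78-fold with RAJI and 1.32-fold without it (adjusted p = 0.0389 in the same test).

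No member passed the test between the classes of lines when both libraries of each line were summed (4 against 4 lines). In edgeR, 9 of 13909 genes (0.0647%) passed, 8 higher and 1 lower in the lines with an MLL fusion, and 0 of 10 members did, with adjusted p-values from 0.656 to 0.994. Before adjustment 1470 genes and 0 members had a p under 0.05. DESeq2 called 604 genes and limma-voom 1, again with 0 members. Line means of the classes overlapped for every member. MLL was at 129 ± 73.0 CPM (SD, n = 4) in the fusion lines and 182 ± 26.5 in the others, a fitted log2 difference of -0.50 ± 0.42 (SE), which was -0.25 without MOLM13 and -0.91 without RS4-11. MLL2 was at 147 ± 49.1 and 198 ± 56.0, a difference of -0.44 ± 0.32, which was -0.27 without THP1 and -0.26 without JURKAT. DPY30 was at 36.7 ± 5.36 and 38.4 ± 11.5 CPM, a difference of -0.07 ± 0.31. SETD1B alone had a difference above 0, at 0.24 ± 0.33 with all lines and 0.007 without RAJI. For ASH2L the difference was -0.03 ± 0.75 with all lines and 1.03 without K562, where the adjusted p was 0.554.

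Levels were compared between genes per kilobase of transcript, for the 8 members whose length could be found (the transcript with the longest coding sequence in GENCODE release 29). On this scale the medians of the core subunits were above those of the enzymes, though not in every line. Medians over the 16 libraries were 51.5 CPM per kb for DPY30, 40.5 for WDR5, 32.1 for ASH2L and 13.6 for RBBP5. The enzymes followed at 13.1 for SETD1A, 11.1 for SETD1B, 9.53 for MLL and 7.89 for MLL3. The gap between RBBP5 and SETD1A is small, and in RS4-11 RBBP5 (8.64 and 8.17) was below all 4 enzymes, among them MLL (13.5 and 13.2). RBBP5 was below SETD1A in P493-6 (10.3 and 10.8 against 16 and 15.2) and in KOPN8 (13.1 and 13.2 against 13.5 and 13.7). In RAJI RBBP5 (11.2 and 11.4) was below MLL (13.3 and 12.1). RBBP5 was the lowest core subunit in 14 libraries, and ASH2L was lowest in both P493-6 libraries. DPY30 was the highest in 8 libraries (MOLM13, RS4-11, KOPN8 and RAJI), ASH2L in the 4 of THP1 and K562, and WDR5 in the 4 of JURKAT and P493-6. Per kilobase of coding sequence, an alternative chosen after seeing the data, these counts were 9, 1 and 6, and WDR5 (127) had a slightly higher median than DPY30 (123). The order of DPY30, ASH2L and WDR5 therefore depends on the length used. So does the gap between RBBP5 and SETD1A, whose medians per kilobase of coding sequence were 37 and 16.5.

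The balance of DPY30 and ASH2L, partners in the core, shifted widely between lines. The ratio of DPY30 to ASH2L, both in CPM per kb, was 0.727 and 0.614 in THP1 and 0.747 and 0.617 in K562 (3R and Y518R). It was 1.28 and 1.05 in MOLM13, 1.20 and 1.14 in JURKAT and 1.98 and 1.85 in KOPN8. It reached 3.16 and 3.01 in RS4-11, 4.23 and 4.01 in P493-6, and 4.12 and 5.39 in RAJI. The ratio was lower with Y518R in 7 lines, a difference that was not tested, and higher in RAJI, whose 3R library stands apart in its reads given to no gene. Most of the range between lines lay in ASH2L, which varied 9.74-fold against 1.85-fold for DPY30.

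Among the 4 enzymes with a length, SETD1A made up the largest share of their summed CPM per kb in 12 libraries, from 29.1% to 39.4% there. SETD1B led in both MOLM13 libraries (44.5% with 3R and 43.1% with Y518R), and MLL in both RAJI libraries (36.8% and 32.1%). MLL made up only 11.7% and 10.2% in MOLM13, and SETD1B only 10.5% and 14.4% in RAJI. With coding length, SETD1A led in 8 libraries, MLL in 6 and SETD1B in 2. MLL2 and MLL4 are left out of these shares, so they are shares of 4 genes and not of all SET1/MLL enzymes.

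**Figure D5:**
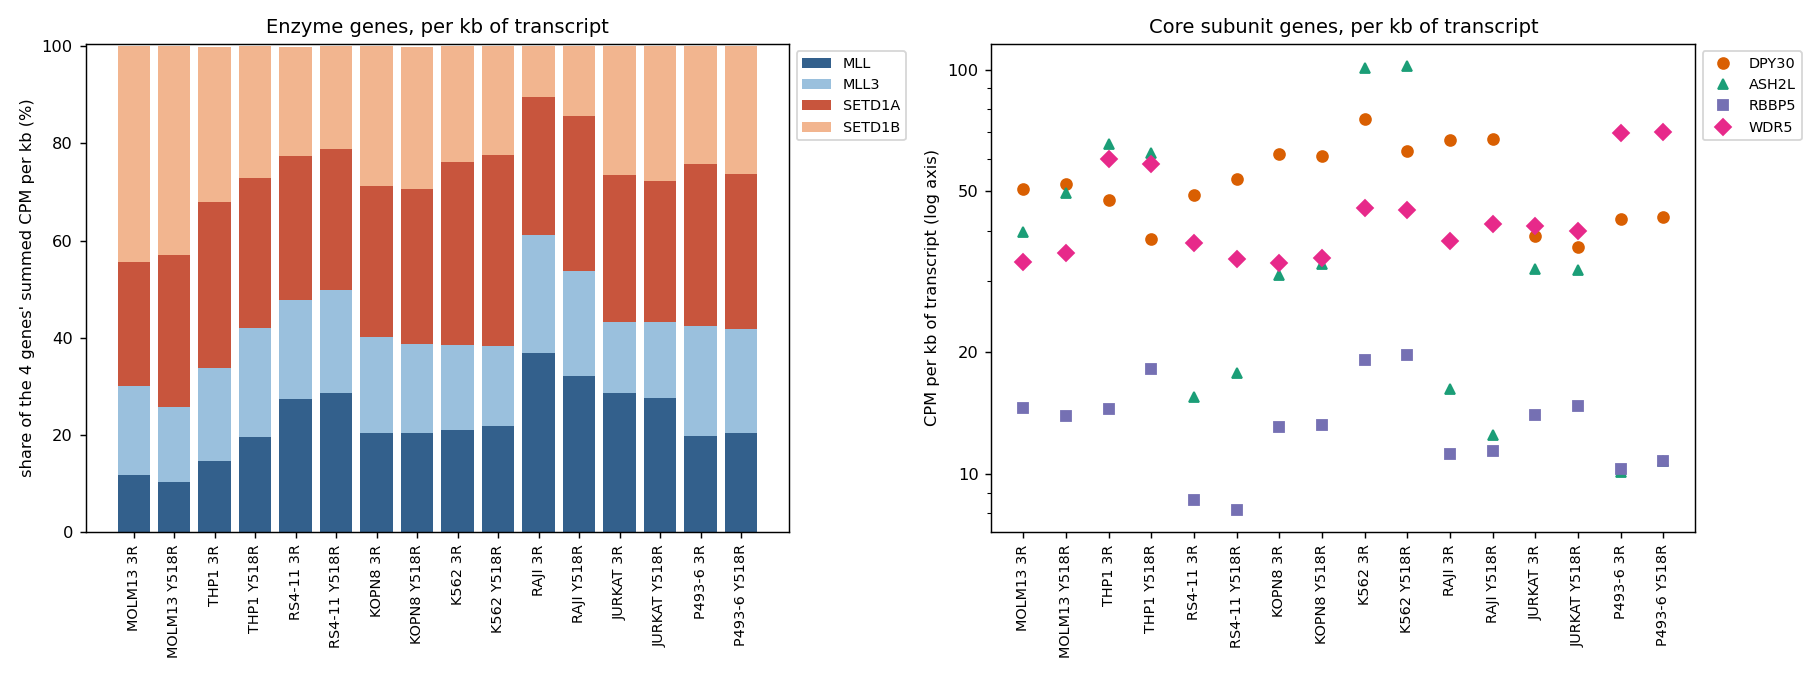
Left, share of MLL, MLL3, SETD1A and SETD1B in their summed CPM per kb of transcript (vertical axis, percent) in each of 16 libraries, with SETD1B at 44.5% in MOLM13 3R and 10.5% in RAJI 3R. Right, CPM per kb of transcript (log axis) of the core subunit genes in the same libraries, with ASH2L ranging from 10.1 to 102 and DPY30 from 36.4 to 75.7.

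Across lines, ASH2L and RBBP5 were the pair of members with the most alike levels. Their Pearson correlation over 8 line means was 0.897 (Spearman 0.905), on log2 CPM. MLL and MLL3 came next (0.748 and 0.524), then MLL3 and SETD1A (0.731 and 0.619). The most opposite pair was ASH2L and MLL3 (-0.622 and -0.762). DPY30 followed none of the other members closely, with a highest Pearson correlation of 0.188 (SETD1A) and 0.165 with ASH2L. Lines share no library, but with 8 lines and 45 pairs these values are descriptions only.

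A search over the 9837 other genes at a mean CPM of 10 or more named the genes most like each member over the lines. For DPY30 they were KHSRP (Pearson correlation 0.944), which encodes a protein that binds RNA, ATP5L (0.938), which encodes a subunit of ATP synthase, and IMMT (0.93), which encodes a protein of the mitochondrial inner membrane. The closest to ASH2L was MICALL2 (0.99), to MLL it was NUTF2 (0.995), and to SETD1B it was ZNF529 (0.987). The others were BLZF1 for RBBP5 (0.944), NUDT9 for WDR5 (0.926), C17orf39 for MLL2 (0.949), PNPLA8 for MLL3 (0.967), GTF2F2 for MLL4 (0.953) and PKN2 for SETD1A (0.954). High values are reached by search alone when so many genes are compared over so few lines.

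Other genes of the pathway were counted by list. Of 12 genes for accessory subunits of the complexes, 0 passed the test for the peptide over 8 lines. Of these, 7 were above 0, with a median log2 change of 0.03, beside 49.1% of all genes tested (median -0.0021). The lowest p was that of KDM6A, an H3K27 demethylase found in the MLL3 complexes, at -0.14 ± 0.07 (SE, adjusted p = 1 in edgeR). KDM6A had 8 and 4 counts in THP1 (0.253 and 0.132 CPM) and was at 24.3 CPM or more in the other 14 libraries. Between lines, 11 of these 12 genes passed the test, and NCOA6, a subunit of the same complexes, did not (68.7 to 91.6 CPM). Between the classes of lines 0 of 12 passed, with the lowest p for MEN1, which encodes the menin subunit that binds MLL (-0.70 ± 0.22, adjusted p = 0.376).

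For 4 genes of other proteins that bind DPY30, 3 were tested and 0 passed for the peptide, with the lowest p for AKAP8 (-0.02 ± 0.05, adjusted p = 1). C17orf49, the fourth, had 0 counts in every library, where a count of 0 allows up to 3 by counting error alone. Its symbol is paired with 2 current genes, RNASEK-C17orf49 and BACC1. Whether its reads were lost in counting was not tested, so the 0 does not show that the gene was silent. All 5 genes for H3K4 demethylases, which remove the mark, had a fitted change above 0 with Y518R over 8 lines (median 0.09). This compares with 49.1% of all genes tested (median -0.0021), and in each class of lines 4 of the 5 were above 0. None passed, and the lowest p was that of KDM1A (0.10 ± 0.06, adjusted p = 1). Of 8 relatives and other SET-domain enzymes tied to H3K4, 6 were tested and 0 passed, led by SETD7 (0.07 ± 0.06, adjusted p = 1). Between lines all 3, 5 and 6 tested genes of these lists passed, near the background of 98.3%. Between classes none passed, and the lowest p-values were those of ARFGEF1 (0.91 ± 0.51, adjusted p = 0.563), KDM1A (-0.83 ± 0.34, 0.457) and SMYD3 (1.44 ± 0.86, 0.586).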

How the data were processed

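Counts were deposited by the authors as whole reads per gene symbol, not normalized, for 16 libraries. HTSeq 0.6.1, TopHat2 2.1.1, CASAVA 1.8.4, DESeq2 3.0 and DESeq are the tools in the submitters' processing notes, with no step for each, and 2 genome builds without saying which was used, so no coordinates are given. Per the labels' protocols, polyadenylated RNA was made into NEBNext Ultra libraries. The 5 entries of each file that name no gene were left out of library sizes and tests.

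Counts were tested with edgeR 4.0.16 (R 4.3.3) with TMM scaling and the quasi-likelihood test, filterByExpr at a minimum count of 10 by peptide (13043 genes kept, or 13909 for class sums), the cell line as a block, and Benjamini-Hochberg adjustment over all genes tested, called at 0.05. The lines, taken from the labels, pair the libraries: all 16 libraries were most like the other library of their own line (Spearman at least 0.988 within and at most 0.883 between lines). SE values were taken as the size of the log2 change over the root of the F statistic. Log2 ratios within a line use a prior count of 2. Counting intervals are exact 95% intervals of the ratio of 2 counts. They cover counting error only, since PCR copies were not told apart by molecular identifiers. Nothing says that libraries came from separate cultures. P-values between lines measure the spread between the libraries of a line, which may be technical. Those for the peptide measure how the ratio varies over lines, which includes any technical spread between libraries. Those between classes measure the spread between lines. The fits were tested on simulated data.

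The members and lists were chosen with earlier results of these data known. The text names all members, genes of each list that passed a test or else the one with the lowest p, and the genes most alike over lines (3 for DPY30, 1 for each other member). Alternatives were RLE scaling, no filter, DESeq2 1.42.0, limma-voom (limma 3.58.1), no line block, each line left out, 1 peptide only for the classes, another prior count and total-count scaling of ratios, and coding length.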

Additional observations from a re-analysis of the deposited data

Results flagged for a closer look

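In the 3R libraries, SETD1B was lowest in RAJI, at 22.6 CPM, and the next line was at 59.5, so the gap was 0.61 of the whole range of 8 libraries. RAJI was also lowest with Y518R (32.4 CPM), where the gap did not stand out by the same measure. RAJI 3R is the library with 44.7% of its reads given to no gene, and the part of this in the SETD1B value was not tested.

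The log2 ratio of RBBP5 was highest in THP1, at 0.33, and the next line was at 0.08, a gap of 0.622 of the range. In THP1 the median log2 ratio was 0.19 for transcripts of at least 10000 bases and -0.13 for those of at most 1500, and the RBBP5 transcript has 4404 bases. The part of length was not tested. Of 30 groups of 8 values looked at, 2 were singled out, and chance alone marks about 5% of groups.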

How the results depend on the processing

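The number of lines and the depth of each library both limit the precision. No member passed the threshold under any alternative for the peptide comparisons or the classes, and all 10 passed it between lines under all 12 alternatives. Under RLE or total-count scaling the median log2 ratio of all genes in a line stayed within 0.1 of 0. Changes near 0 took either sign in 46 of 400 member values under the alternatives, and the cause was not tested beyond which line was left out.

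Counts of genes called over 8 lines, in the fusion lines, in the other lines and for their difference were 0 each and, without the expression filter (20082 genes), 3, 52, 1 and 9. With limma-voom they were 3, 20, 2 and 2, and with DESeq2 1 in the fusion lines and 2 for the difference. Leaving out a line gave 0 to 3 in the fusion lines and 0 to 1 for the difference. Without the line block (no replicate block) the counts stayed at 0 and no member's call changed, but the log2 change of SETD1B was -0.021 and the class difference of RBBP5 was 0.021. With limma-voom these were -0.018 and 0.0063. Between classes, 9 genes became 604 with DESeq2, 1 with limma-voom, 4 with the Y518R libraries only and 3 to 10 when a line was left out (4 without MOLM13, 3 without JURKAT). The class difference in level was 0.0028 for DPY30 and 0.37 for ASH2L with limma-voom, 0.046 for ASH2L with Y518R libraries only and 0.0195 for MLL4 with 3R libraries only.

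When each line was left out in turn, log2 changes over the remaining lines ran from -0.0062 to 0.088 for ASH2L, -0.015 to 0.027 for WDR5, -0.044 to 0.068 for MLL, -0.018 to 0.048 for MLL2, -0.087 to 0.0047 for MLL3, -0.019 to 0.047 for SETD1A and -0.054 to 0.049 for SETD1B. The class difference in change ran from -0.014 to 0.14 for DPY30, -0.10 to 0.042 for RBBP5, -0.067 to 0.0054 for WDR5, -0.17 to 0.086 for MLL and -0.20 to 0.0075 for MLL3. The class difference in level ran from -0.21 to 0.063 for DPY30, -0.36 to 1.03 for ASH2L, -0.22 to 0.10 for RBBP5, -0.32 to 0.0078 for MLL3 and -0.27 to 0.048 for MLL4.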
